A study of Mus musculus with 6 samples.

Results

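The Dectin-1 lectin cluster is a group of C-type lectin-like receptor genes on mouse chromosome 6, within the natural killer gene complex. The set described here holds 8 genes: Clec7a, which encodes Dectin-1, and Olr1, Clec1a, Clec1b, Clec2d, Clec9a, Clec12a and Clec12b. They were chosen by symbol, taking all probe sets that the platform annotation pairs with a member. Each member had exactly 1 probe set, none shared with another gene, so all 8 were measured among 19938 genes tested. The samples were bone marrow derived macrophages of C57BL/6 mice cultured for 7 days with CSF1 (M-CSF), called M(CSF1), or with CSF2 (GM-CSF), called M(CSF2). There were 3 arrays in each group, and the sorted cells came from cultures that the labels call biological replicates. No source used here says that each replicate was a different mouse, so p-values measure the spread between these arrays, which may be technical in part. The labels name no genetic change and no agent other than the growth factor, and do not say how the cells were sorted.

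The receptors of this cluster have a lectin-like domain outside the cell and a short tail inside it, and they fall into activating and inhibitory kinds. Dectin-1 binds beta-glucan of fungal cell walls and signals through a tyrosine motif of its own, the hemITAM, which recruits the kinase Syk and then the adaptor CARD9. Inhibitory members carry an ITIM, a motif that recruits the phosphatases SHP-1 and SHP-2. In macrophages the cluster is best known for the recognition of fungi, of dying cells and of modified lipoproteins.

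The arrays were alike at large. The medians of the 6 arrays were within 3.91 to 4.00 (log2), and arrays of the same group correlated at 0.995 to 0.997 across all probe sets against 0.954 to 0.959 between groups. The labelled cell type was compared with 8 genes listed as defining macrophages. No other cell type was profiled, so these genes cannot tell macrophages from related myeloid cells. All 8 were above the dim level on every array. Of these, 3 were higher in M(CSF2) and 3 lower: Csf1r, the CSF1 receptor, had mean levels of 9.81 and 10.41 in M(CSF1) and M(CSF2), and the macrophage surface marker Adgre1 had 11.88 and 10.70. Cd14 and Cd68 were the others that were higher, and Fcgr1 and Lyz2 the others that were lower. The dim level used throughout is 3.36 on the log2 scale, the 95th percentile of the mean levels of 1027 olfactory receptor genes. These genes serve as an empirical reference for low signal, and whether these cells express any of them was not tested.

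CSF2-grown cells had far more Clec7a and Olr1 signal and far less Clec12a signal than CSF1-grown cells. Clec7a was 29.2-fold higher and Olr1 21.6-fold higher in M(CSF2), while Clec12a was 6.92-fold lower. Clec2d was bright in both groups with a small difference that missed the threshold. The other 4 members, Clec1a, Clec1b, Clec9a and Clec12b, had mean levels below the dim level in both groups. In a bulk sample, fewer cells that carry a transcript and less of it per cell cannot be told apart.

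At an adjusted p under 0.05 (limma, Benjamini-Hochberg over all genes), 3 of 8 members were higher in M(CSF2) and 1 was lower, with 4 not called. Over all genes, 11.9% were called higher and 15.6% lower, 27.5% in all. With a difference of at least 2-fold also required, 3 members were called, 2 higher and 1 lower, where 7.99% of all genes were, 3.57% higher and 4.42% lower. The median difference over the 8 members was 0.29 on the log2 scale, beside 0.04 over all genes. The members were picked with earlier results of these data known, so these counts describe the set and are no test of it.

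**Figure D1:**
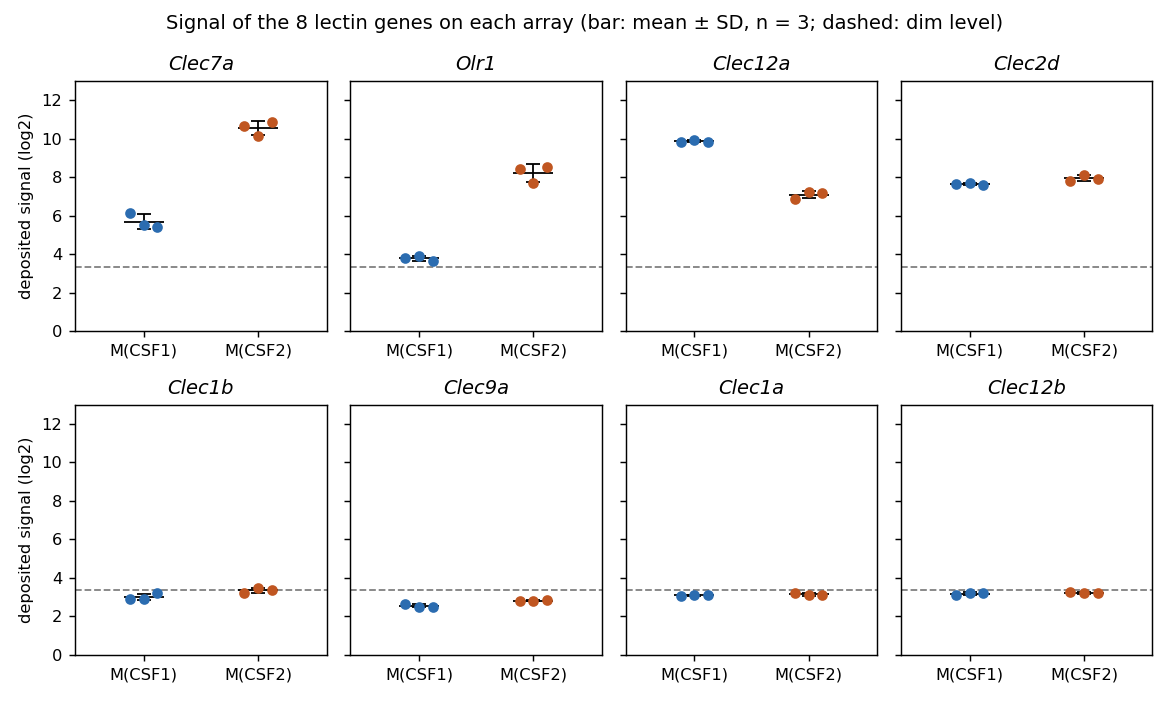
Deposited log2 signal of the 8 lectin genes on each of the 6 arrays, with points for arrays, black bars for the mean ± SD (n = 3) and a dashed line at the dim level of 3.36. Clec7a and Olr1 sit far higher in M(CSF2), Clec12a far lower, and the 4 genes of the bottom row lie near or under the dashed line. Heights of different genes come from different probes and are not comparable with each other.

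Clec7a encodes Dectin-1, the beta-glucan receptor that triggers phagocytosis and cytokine release in macrophages and dendritic cells. Its signal was 6.15, 5.54 and 5.39 on the log2 scale on the 3 M(CSF1) arrays and 10.66, 10.15 and 10.86 on the 3 M(CSF2) arrays. The groups did not come near each other: the lowest M(CSF2) array lay 4.00 above the highest M(CSF1) array. The mean rose from 5.69 ± 0.40 to 10.56 ± 0.37 (SD, n = 3 arrays each). The difference was 4.87 (SE 0.24, limma adjusted p = 5.4e-06), and the fold of 29.2 had a 95% interval of 19.9 to 42.8. All 3 M(CSF1) arrays stood above the dim level, so Clec7a was detected in both groups. By size of difference in either direction, Clec7a was number 42 of the 19938 genes.

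Olr1 lies next to Clec7a and encodes LOX-1, a receptor for oxidised LDL first known from endothelium and also found on macrophages. It gave 3.82, 3.90 and 3.64 in M(CSF1) and 8.42, 7.70 and 8.53 in M(CSF2). The M(CSF1) arrays were only slightly above the dim level, and the M(CSF2) arrays were all far above it, with no overlap between the groups. The mean went from 3.78 ± 0.13 to 8.22 ± 0.45 (SD, n = 3 arrays each). The difference was 4.43 (SE 0.21, limma adjusted p = 4.5e-06). The fold of 21.6 had a 95% interval of 15.4 to 30.2, and a signal this close to the dim level can make a fold too small. In M(CSF2), replicate 2 was the lowest array for both Clec7a and Olr1.

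Clec12a, on the other side of the block, encodes MICL, an ITIM-bearing inhibitory receptor of myeloid cells that senses uric acid crystals and dead cells. Its signal was 9.84, 9.96 and 9.84 in M(CSF1) and 6.88, 7.23 and 7.16 in M(CSF2). It was bright in CSF1-grown cells and still well above the dim level in CSF2-grown cells, with a gap of 2.61 between the groups. The mean fell from 9.88 ± 0.07 to 7.09 ± 0.19 (SD, n = 3 arrays each), a difference of -2.79 (SE 0.10, limma adjusted p = 1.6e-06). The 6.92-fold lower signal had a 95% interval of 5.86 to 8.18. Clec12a was the only member that was lower in M(CSF2).

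Clec2d encodes Clr-b, a ligand that ordinary cells show to the inhibitory receptor Nkrp1b of natural killer cells. It was 7.63, 7.72 and 7.61 in M(CSF1) and 7.81, 8.13 and 7.91 in M(CSF2). All 3 M(CSF2) arrays were above all 3 M(CSF1) arrays, by a gap of 0.08. The difference of 0.30 (SE 0.10) had a 95% interval of 0.07 to 0.52 before adjustment and an adjusted p of 0.057 in limma, so it was not called. Counting Clec2d, the groups did not overlap for 5 of the 8 members, 4 of them higher and 1 lower in M(CSF2). Over all genes the groups did not overlap in 38.9%, with M(CSF2) higher in 19.1% and lower in 19.8%.

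The remaining 4 members are best known from other cells: Clec1b (CLEC-2) from platelets, Clec9a (DNGR-1) from type 1 conventional dendritic cells, and Clec1a from endothelium. Clec12b is an inhibitory receptor with an ITIM. Clec9a binds actin filaments exposed by dead cells, and Clec1b binds podoplanin. Clec1b gave 2.88, 2.93 and 3.20 in M(CSF1) and 3.20, 3.48 and 3.39 in M(CSF2), the only one of the 4 with arrays above the dim level, 2 of them. Its difference of 0.35 had an adjusted p of 0.054 in limma. The third M(CSF1) array and the first M(CSF2) array had the identical value, one that occurs 653 times in the deposited table.

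Clec9a passed the threshold with all 6 arrays below the dim level. Its values were 2.63, 2.51 and 2.50 in M(CSF1) and 2.80, 2.82 and 2.85 in M(CSF2), a difference of 0.27 (SE 0.07, limma adjusted p = 0.021). Both groups lie in the range of olfactory receptor genes, so no fold is given. Of the 5705 genes that were dim on all 6 arrays, 0.876% were called higher. The call ended after quantile normalization (adjusted p = 0.0645), after centring arrays on their medians (adjusted p = 0.0815), and without M(CSF1) replicate 2 (adjusted p = 0.077), M(CSF1) replicate 3 (adjusted p = 0.0504) or M(CSF2) replicate 3 (adjusted p = 0.0642).

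Clec1a, which encodes MelLec, a receptor for fungal melanin, ran from 3.08 to 3.10 in M(CSF1) and from 3.09 to 3.24 in M(CSF2). Clec12b ran from 3.12 to 3.24 and from 3.20 to 3.28. Values of the groups overlapped for both genes. The differences were 0.05 (95% interval -0.11 to 0.22, limma adjusted p = 0.66) for Clec1a and 0.04 (95% interval -0.12 to 0.20, limma adjusted p = 0.74) for Clec12b. The small difference of Clec12b changed sign after quantile normalization (-0.015) and after centring (-0.0061). At this signal, transcripts of these genes were not detectable in either group, which does not show that they were absent.

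**Figure D2:**
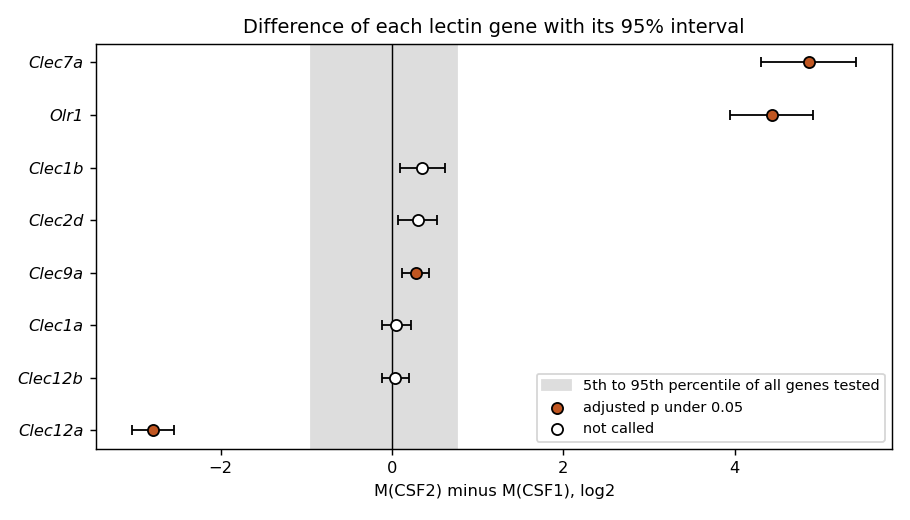
Log2 difference of each lectin gene between M(CSF2) and M(CSF1), positive where M(CSF2) is higher, with its 95% interval from limma before adjustment; the grey band runs from the 5th to the 95th percentile of all 19938 genes, from -0.94 to 0.76. Clec7a and Olr1 (4.87 and 4.43) and Clec12a (-2.79) lie outside the band, and the other 5 members lie inside it.

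Markers of the cell types in which these receptors are otherwise found were measured beside them. Of 10 markers of type 1 conventional dendritic cells, 1 was called higher and 1 lower, and the defining receptor Xcr1 was dim on all arrays (means 2.78 and 2.75). The 2 brightest of them were Irf8 (7.95 and 8.68, adjusted p = 0.00033) and Wdfy4 (6.84 and 6.43, adjusted p = 0.034), and the summed level of the list ran from 8.97 to 9.04 in M(CSF1) and from 9.30 to 9.40 in M(CSF2). The Wdfy4 call ended without M(CSF1) replicate 1 or 2 or M(CSF2) replicate 2 or 3 (adjusted p from 0.0681 to 0.134), and without M(CSF1) replicate 1 or 2 the list had 1 called gene in place of 2.

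The platelet and megakaryocyte list had 6 of 10 markers measured, with 3 higher and 1 lower. Its summed level ran from 8.15 to 8.48 in M(CSF1) and from 11.30 to 11.33 in M(CSF2), most of it from the chemokines Pf4 (7.45 and 11.08) and Ppbp (5.72 and 8.13), while the platelet receptor gene Gp9 was lower (4.00 and 3.50). Of the 10 endothelial markers, 4 were higher and 1 lower, with summed levels of 7.49 to 7.68 and 8.76 to 8.98. Their 2 brightest genes were the VEGF receptor Kdr, which rose from 4.54 to 8.07, and the adhesion molecule Pecam1, which fell from 6.09 to 5.30, a call that ended without M(CSF1) replicate 1 (adjusted p = 0.0607) or replicate 2 (adjusted p = 0.0618). The endothelial markers Tek and Emcn were dim on all 6 arrays, and Cdh5 rose from 3.69 to 4.72. Vwf and Erg were the others that were higher, Vwf with means of 4.31 and 5.93 and Erg with 3.81 and 4.53. The part of platelet-like or endothelial cells in the Clec1b and Olr1 values was not tested.

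Neutrophils also carry Clec7a, Clec12a and Olr1. Of 12 neutrophil markers 3 were higher and 1 lower, with summed levels of 9.42 to 9.62 in M(CSF1) and 11.35 to 11.55 in M(CSF2). The brightest were the collagenase Mmp8 (6.60 and 11.04) and Csf3r (8.88 and 7.31). The calcium-binding gene S100a8 rose from 6.09 to 8.46 (adjusted p = 0.00013). Its relative S100a9 did not rise, with means of 4.55 and 4.21 (limma adjusted p = 0.072). Mpo (3.72 and 3.77) and Elane (3.46 and 3.39) were not called either. Ly6g, Cxcr2, Ngp, Retnlg and Ltf were dim on all arrays, and of these Ltf was called higher (2.82 and 3.13, adjusted p = 0.014). The lymphocyte list had 0 of 9 measured markers called, 5 of them dim on all arrays. At an unadjusted p under 0.05, 0 of the 9 passed as well, and Cd3e (4.16 and 4.22) and Prf1 (4.00 and 3.97) were its brightest genes. Mast cell and basophil markers had 4 of 11 higher and 0 lower (5 and 0 at an unadjusted p under 0.05), with summed levels of 6.77 to 7.04 and 9.05 to 9.26. Hdc (3.85 and 8.27) and Gata2 (4.54 and 7.06) were the brightest, and Kit rose by 1.32. Dim on all arrays were 6 of the 11, Cpa3, Mcpt4, Mcpt8, Cma1, Fcer1a and Ms4a2. Of these Mcpt8 (2.70 and 3.06, adjusted p = 0.047) was the remaining call. It held without M(CSF2) replicate 3 but not without any other single array (adjusted p from 0.0595 to 0.157). The part of these cells in the lectin values was not tested.

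The members lie close together in the genome. In the RefSeq order of assembly GRCm38.p6, Clec12a, Clec12b, Clec1b, Clec9a, Clec1a, Clec7a and Olr1 follow each other with no other protein-coding gene between them, and Clec2d stands apart by 2 genes, Cd69 and Clec2m. The members that differed most were thus at the 2 ends of the block, Clec12a lower at one end and Clec7a with Olr1 higher at the other, with 4 genes of dim signal between. Among the 12 neighbours in the order that are no member, 11 were measured, 2 were higher, 0 were lower and 8 were dim on all arrays. At an unadjusted p under 0.05 the counts were also 2 and 0. Gabarapl1, an autophagy gene that follows Olr1 after Tmem52b, rose from 7.25 ± 0.13 to 8.55 ± 0.10 (SD, n = 3 arrays each, limma adjusted p = 3.1e-05). Cd69, an early activation receptor of leukocytes, rose from 5.79 ± 0.24 to 6.55 ± 0.20 (limma adjusted p = 0.0056). Tmem52b, directly beside Olr1, was dim in both groups (2.86 and 2.98, adjusted p = 0.24).

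**Figure D3:**
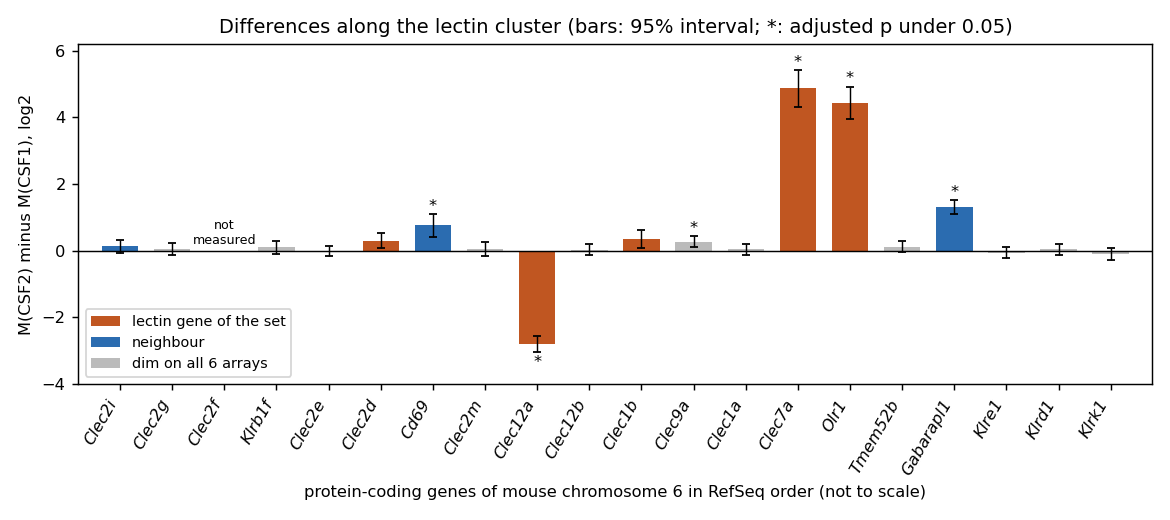
Log2 differences of the protein-coding genes along the cluster, positive where M(CSF2) is higher, in RefSeq order and not to scale; black bars are 95% intervals and an asterisk marks an adjusted p under 0.05. The tall bars are Clec7a and Olr1 side by side (4.87 and 4.43) and Clec12a (-2.79), the grey bars are genes dim on all 6 arrays, and Clec2f was not measured.

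The promoter windows of the 3 members with the largest differences are shown because Clec7a and Olr1 rose together and Clec12a fell. Each window is from RefSeq on build GRCm38.p6, 300 bases from 250 before a transcript start to 50 after it, in the direction of the gene. Capitals mark matches to the motifs searched.
Clec7a, chr6:129472736-129473035, minus strand: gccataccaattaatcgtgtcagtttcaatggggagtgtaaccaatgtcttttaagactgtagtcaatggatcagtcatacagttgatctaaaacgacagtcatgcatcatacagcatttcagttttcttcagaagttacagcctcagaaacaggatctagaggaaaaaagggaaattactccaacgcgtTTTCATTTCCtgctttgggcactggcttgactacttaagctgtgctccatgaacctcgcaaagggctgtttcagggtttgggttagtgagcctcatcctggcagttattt
Olr1, chr6:129507116-129507415, minus strand: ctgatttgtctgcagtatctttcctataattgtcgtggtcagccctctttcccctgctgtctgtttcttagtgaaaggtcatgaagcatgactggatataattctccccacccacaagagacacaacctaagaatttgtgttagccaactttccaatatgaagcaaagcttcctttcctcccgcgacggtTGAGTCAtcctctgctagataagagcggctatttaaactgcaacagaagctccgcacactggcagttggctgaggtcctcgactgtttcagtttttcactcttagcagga
Clec12a, chr6:129349994-129350293, plus strand: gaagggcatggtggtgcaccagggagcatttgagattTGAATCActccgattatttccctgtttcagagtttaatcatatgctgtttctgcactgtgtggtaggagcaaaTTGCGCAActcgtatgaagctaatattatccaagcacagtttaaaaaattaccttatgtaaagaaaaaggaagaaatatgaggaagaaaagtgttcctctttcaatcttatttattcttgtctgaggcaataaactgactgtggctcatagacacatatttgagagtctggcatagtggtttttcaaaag

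The motifs were searched on both strands in the windows of 7 members; Clec1a had no entry. The ETS-IRF composite (GGAA, 2 free bases, then GAAA), bound by PU.1 together with IRF4 or IRF8, matched in Clec7a alone among the members. In the window shown it ran from -60 to -51, with the start base counted as 0. Clec7a also has a window from another start, in which the same match ran from -66 to -57. The composite occurs in 2.72% of 32851 promoter windows of the table. The AP-1 motif TGANTCA matched in Olr1, from -60 to -54, and in Clec12a, from -213 to -207, and occurs in 7.81% of windows. The NF-kB letters (GGG, 5 free bases, then CC) matched in Clec1b and occur in 50.8% of windows. The CEBP palindrome TTGCGCAA, searched after the windows had been seen in place of a pattern that was 1 base too long to match it, was found in Clec12a, from -140 to -133, and occurs in 0.183% of windows. The PU.1 core GAGGAAGT (3.20% of windows) and the STAT motif TTCNNNGAA (8.30%) matched in no member. No 2 of these matches overlap, and a match of letters is a description of the window and not evidence of binding.

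Of 16 measured genes for factors that bind these motifs, 9 were higher in M(CSF2) and 4 lower, with a median difference of 0.47. Irf4 rose from 3.49 to 8.09 (adjusted p = 3.5e-07), Cebpa from 5.59 to 7.30 and Cebpb from 7.46 to 8.82. Stat5a, a factor activated by CSF2 signalling, rose by 1.11 and Irf8 by 0.72. The AP-1 genes went both ways: Fosl2 rose by 1.19, Junb by 0.71 and Jund by 0.52, while Batf, an AP-1 partner, fell from 8.10 to 6.59 and Jun by 0.86. Spi1, which encodes PU.1, fell by 0.50 from a mean of 10.80. Fos fell by 0.60 (adjusted p = 0.039), a call that held without M(CSF1) replicate 3 but not without any other single array (adjusted p from 0.0536 to 0.145).

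The signalling relay below Dectin-1 did not move as a block. Syk, the kinase that binds the hemITAM, was 9.78, 9.62 and 9.45 in M(CSF1) and 9.39, 9.35 and 9.58 in M(CSF2). These values overlapped (difference -0.18, 95% interval -0.42 to 0.07, adjusted p = 0.29). Card9, the adaptor that follows, had means of 6.29 and 6.17 (adjusted p = 0.43). Of 22 measured genes of the relay 5 were higher and 9 lower, with a median difference of -0.19. For comparison, 38.9% of the 13317 genes with at least 1 array above the dim level in each group were called in either direction. When single arrays were left out, the Prkcd call (higher) held only without M(CSF2) replicate 2. The Bcl10 call (lower) held only without M(CSF2) replicate 3.

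Among those higher was Malt1, the paracaspase that works with CARD9 and BCL10. It was 6.59, 6.48 and 6.19 in M(CSF1) and 9.23, 8.82 and 9.32 in M(CSF2), a difference of 2.70 with no overlap (fold interval 5.06 to 8.35 at 95%, adjusted p = 1.1e-05). The kinase Src rose by 1.70 (adjusted p = 4.1e-05) and the ubiquitin ligase Traf6 by 0.64. The exchange factors Vav1 and Vav2 fell by 1.23 and 1.14, and the Src family kinase Fgr fell by 1.03.

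The calcium branch had 2 of 11 measured genes higher and 7 lower, with a median of -0.56. All 11 were above the dim level on every array, and 38.9% of genes above it in each group were called. The calcineurin subunits Ppp3cb and Ppp3r1 fell by 1.38 and 1.05 and Nfatc2 by 0.97. Egr2, a transcription factor induced through NFAT, rose from 5.15 ± 0.31 to 8.74 ± 0.16 (SD, n = 3 arrays each, adjusted p = 3.6e-06), and the calcium channel gene Itpr2 rose by 0.52 (adjusted p = 0.036). The Itpr2 call held without M(CSF2) replicate 2 but not without any other single array (adjusted p from 0.0876 to 0.139). The EGR genes did not move together: Egr1 fell by 0.66 (limma adjusted p = 0.013), and Egr3 was not called (limma adjusted p = 0.066). The Egr1 call ended without M(CSF1) replicate 1 or 2 or M(CSF2) replicate 1 or 3 (limma adjusted p from 0.0506 to 0.0724). The phagocyte oxidase and LC3-associated uptake had 3 of 10 higher and 1 lower (median -0.01): Cyba rose by 0.89, Map1lc3b by 0.72 and Ncf4 by 0.61, and the GTPase Rac2 fell by 1.02.

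Of 11 genes for inhibitory signalling 6 were lower and 1 higher, with a median difference of -0.41. Over all genes 15.6% were called lower and 11.9% higher. All 11 were above the dim level on every array, however. Of the 13317 genes with at least 1 array above it in each group, 38.9% were called in either direction. The Cbl call (lower) ended without M(CSF1) replicate 1 or 2 or M(CSF2) replicate 1 or 2 (limma adjusted p from 0.107 to 0.139). The Cblb call (lower) ended without M(CSF1) replicate 2 (limma adjusted p = 0.0524) or M(CSF2) replicate 1 (limma adjusted p = 0.0519). Ptpn6, which encodes SHP-1, the phosphatase that ITIM receptors such as Clec12a recruit, was 10.49, 10.44 and 10.34 in M(CSF1) and 9.43, 9.54 and 9.50 in M(CSF2). Its groups did not overlap, and the signal was 1.91-fold lower in M(CSF2) (95% interval 1.70 to 2.15, adjusted p = 5.5e-05). The lipid phosphatase Inpp5d (SHIP-1) fell by 1.16 and the adaptor Dok3 by 0.88. Ptpn11 (SHP-2) had means of 7.65 and 7.30 and was not called (adjusted p = 0.071). The adaptor Pag1 rose by 0.37.

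Other Syk-coupled lectins and membrane partners of Dectin-1 had 5 of 11 higher and 1 lower, with a median of 0.30. Clec4n, which encodes Dectin-2, gave means of 6.21 and 11.90, and Clec5a and Clec4d rose by 1.36 and 1.34. Tlr2, which acts with Dectin-1 on fungal particles, rose from 8.81 to 9.44 (adjusted p = 0.0012), and the shared adaptor Fcer1g fell by 0.30, a call that ended without M(CSF1) replicate 2 (-0.28, adjusted p = 0.0563). The tetraspanin gene Cd37, whose product holds Dectin-1 at the membrane, had means of 9.78 and 9.80 (adjusted p = 0.92).

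**Figure D4:**
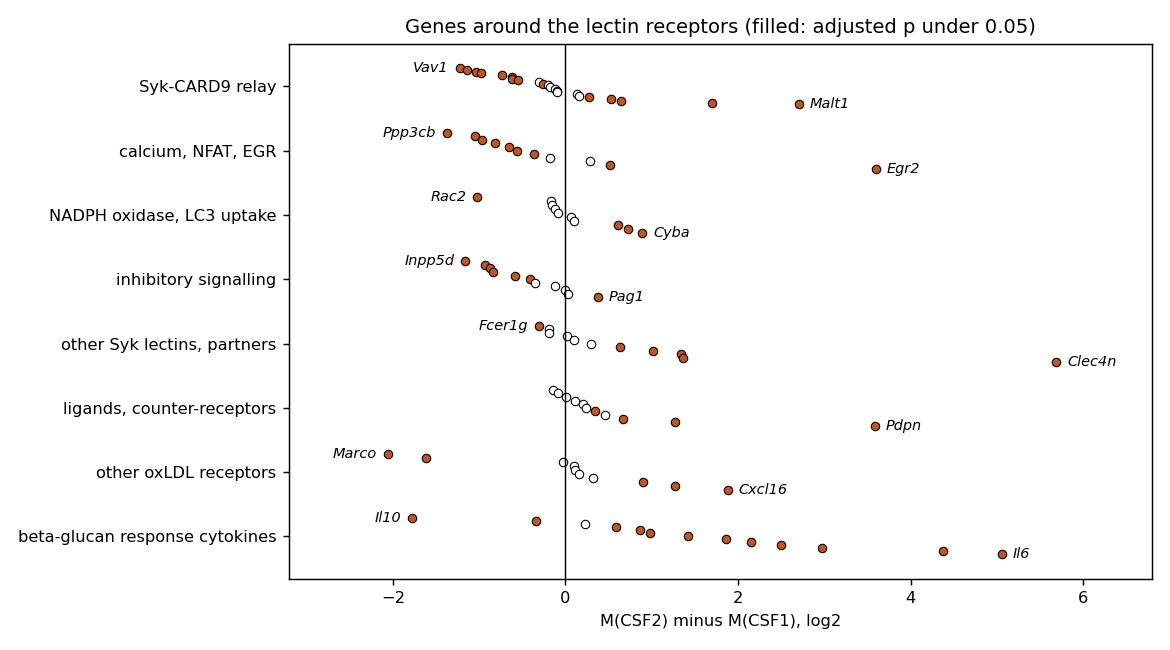
Differences of single genes in 8 lists around the lectin receptors (log2, positive where M(CSF2) is higher); each circle is a gene, filled where the adjusted p was under 0.05, and the outermost called genes are named. The relay, calcium and inhibitory lists lean to the left (medians -0.19, -0.56 and -0.41), and the cytokine list leans to the right (1.42).

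Host ligands and counter-receptors of the members were listed together with the Klrb1 family of natural killer cells, 5 genes. Not every Klrb1 gene of the list is a known counter-receptor of a member. Of 11 genes measured in the same cells 4 were higher and 0 lower (7 and 0 at an unadjusted p under 0.05). Pdpn, podoplanin, the ligand of Clec1b, was 7.63, 6.91 and 6.96 in M(CSF1) and 10.66, 10.68 and 10.92 in M(CSF2). Its groups stood far apart, with a difference of 3.58 (fold interval 8.83 to 16.3 at 95%, adjusted p = 7.5e-06), while Clec1b itself had means below the dim level. Klrb1b, the receptor gene for Clec2d on natural killer cells, had means of 3.65 and 4.11 and was not called (adjusted p = 0.058). Its neighbour in the family Klrb1a, dim in M(CSF1), reached 4.36 in M(CSF2), at least 2.0-fold above the dim level (adjusted p = 0.00067). The annexins Anxa1 and Anxa5, which are among the proteins reported to bind Dectin-1, rose by 0.66 and 0.34.

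Of the Clec2 family, 1 of 7 measured genes was called: Clec2l rose by 1.57 (adjusted p = 2.1e-05). Without M(CSF2) replicate 1 the count was 2, with Clec2d. Clec2e, Clec2g, Clec2h and Clec2j were dim on all arrays. A further list held Klr genes, chosen by symbol, and Cd69. Among its 21 measured genes 3 were higher and 1 lower, and 15 were dim on all arrays. Not every gene of this list lies in the natural killer complex, Klrg2 among them. Besides Cd69 and Klrb1a, Klrg2 rose by 0.51, and Klra2, a Ly49 family gene, fell to the dim level and was at least 2.74-fold lower (adjusted p = 3.9e-05).

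A list of other receptors for oxidised LDL and of scavenger receptor genes split, with 3 of 10 higher and 2 lower beside Olr1. These counts include Scarb2, which is not an established receptor for oxidised LDL. Cxcl16 rose by 1.88, Scarb2 by 1.27 and Cd68 by 0.89, while Marco fell by 2.06 and Stab1 by 1.61. Msr1 and Cd36, the scavenger receptors most tied to lipid uptake in macrophages, were bright and not called (9.13 and 9.23, adjusted p = 0.50, and 9.96 and 10.29, adjusted p = 0.072). Of 13 cytokine and mediator genes that beta-glucan is known to induce, 10 were higher and 2 lower, with a median of 1.42. Il6 rose by 5.06, Csf3 by 4.37 and Cxcl1 by 2.97, and Il10 fell by 1.77. Tnf fell by 0.34 (adjusted p = 0.049), a call that held without M(CSF2) replicate 2 but not without any other single array (adjusted p from 0.0608 to 0.165). The labels name no beta-glucan treatment of these cells.

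The genes whose profiles over the 6 arrays were most like that of Clec7a, by the root mean square difference of log2 values after each gene's own mean was removed, were Dcstamp (0.093), Bhlhe40 (0.14), Thbs1 (0.15), Itgax (0.19) and Trf (0.20). For Olr1 they were Mmp19 (0.15), Slc7a2 (0.16), Slc7a11 (0.20), Irf4 (0.20) and P2ry14 (0.22). Olr1 stood at place 16 for Clec7a and Clec7a at place 22 for Olr1, at a difference of 0.31. With 2 groups of 3 arrays this measure mostly follows the size of the group difference.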

How the data were processed

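RNA from 6 samples, 3 M(CSF1) and 3 M(CSF2), was hybridised to Affymetrix arrays, model Mouse Gene 1.0 ST. The deposited table holds log2 values for 28941 probe sets; base 2 was inferred from a range of 1.48 to 13.27. The submitters' processing notes name MAS5, and background correction, normalization and genome build are not given in the sources used here. Array means were nearly equal (4.63), and no detection calls come with the table.

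Probe sets with 1 gene in the platform annotation were used (21789), symbols were updated by Entrez identifier, and the brightest probe set stood for a gene with several. Under R 4.3.3, limma 3.58.1 fitted group differences (lmFit, then eBayes, 2-sided tests) on all 19938 genes, called at an adjusted p under 0.05. Means, counts and promoter matches were computed in Python 3.11.15. The procedure was tested on simulated data. If no array of a group exceeded the dim level, a fold is a lower bound against that level. The summed level of a list is the log2 of its members' summed linear signals on an array. The number of arrays limits the precision.

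Members and gene lists were chosen with earlier results of these data known. All members were named, with up to 3 called genes in each direction per list, their direct partners, the 2 brightest markers of each other cell type and the 5 genes most like Clec7a and Olr1. Other genes given with values were named after their values were seen. The main fit did not pair arrays by replicate number, and the labels do not say whether same-numbered cultures were linked. Deviations of same-numbered arrays from their group means correlated at -0.01, -0.03 and -0.24 over all probe sets. With 3 arrays per group these values cannot exclude such a link.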

Additional observations from a re-analysis of the deposited data

How the results depend on the processing

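Clec7a, Olr1 and Clec12a kept their direction and their call in all 16 alternatives, with differences of 4.71 to 5.09, 4.28 to 4.69 and -2.86 to -2.69 and adjusted p of at most 0.0036, 0.0034 and 0.0020. The members near the threshold moved across it. Clec1b became called after quantile normalization (0.30), with an intensity trend (0.35) and with the replicate block (0.35), and Clec2d after quantile normalization (0.37), among genes above the olfactory receptor level (0.30) and among genes above the median signal (0.30). Clec9a lost its call after quantile normalization (0.23), centring on array medians (0.23) and with the replicate block (0.27). The sign of Clec12b turned after quantile normalization (-0.015) and centring (-0.0061), at adjusted p of 0.91 and 0.97. Leaving out 1 array at a time gave 0.29 to 0.45 for Clec1b, 0.21 to 0.37 for Clec2d and 0.25 to 0.32 for Clec9a, with Clec1b called without M(CSF1) replicate 3 and Clec2d without M(CSF2) replicate 1. The replicate block left the calls of the other members as they were. The cause of these changes was not tested. With the median of olfactory receptor genes in place of the 95th percentile the dim level was 2.41, which the M(CSF1) and M(CSF2) means of every member exceed. Of 288 recounts of the gene lists 279 stayed within 1.5 times. The calls of the list genes Egr1, Stat5b, Treml1 and Il23a also ended when some single array was left out. No array has detection calls, so signal near the dim level sets the limit for 4 members.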

Other observations

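Beyond the cluster, 26 further genes with a Clec symbol were measured, chosen after the data were examined. Of these 6 were higher in M(CSF2), 4 were lower and 16 were not called, 8 of them dim on all arrays. Besides Clec4n, Clec4d, Clec5a and Clec2l, the galactose lectin Clec10a (3.36 and 3.96, adjusted p = 0.0045) and the secreted lectin Clec11a (3.50 and 3.82, adjusted p = 0.023) were higher. The Clec11a call ended without M(CSF1) replicate 1 or 2 or M(CSF2) replicate 2 or 3 (adjusted p from 0.073 to 0.0775). The 4 that were lower all belong to the Clec4a and Clec4b groups: Clec4a3 (-2.54, adjusted p = 7.3e-07), Clec4a1 (-2.14, adjusted p = 1.4e-05), Clec4a2 (-1.04, adjusted p = 0.00023) and Clec4b1 (-0.76, adjusted p = 0.0014). Clec4b1 was dim in M(CSF2), and its M(CSF1) mean of 3.37 was barely above the dim level, so the lower bound on its fold was only 1.005. Clec4a2 encodes DCIR, an inhibitory ITIM lectin like Clec12a.

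Identical values recur in the deposited table. Of its values at or below the dim level 39.6% occur more than once, against 17.5% of those above it. Among the members this touched Clec1b, Clec12b and Clec1a, and Clec7a on 1 array.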
